A study of Mus musculus with 8 samples.

Results

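SS18 and 9 other subunits of the BAF chromatin remodeling complexes were followed at the mRNA level in mouse embryonic stem cells (ESCs) exposed to compounds that bind the bromodomains of BAF proteins. The 10 genes were Ss18, Ss18l1, Arid1a, Arid1b, Arid2, Dpf2, Phf10, Smarcc1, Smarcb1 and Smarcd1. They were found by name among the 50600 rows of the expression table, and all 10 were present. RNA-seq had been performed on c-Jun_TetOn_mESC, an OG2 transgenic ESC line of mixed 129SVJ, C57B6 and CBA background in which doxycycline switches on JUN. Each of 4 groups had 2 libraries, 8 in all, collected at 6 h according to the labels, whereas a legend of the study gives a longer induction. The groups were DMSO as the vehicle, PFI-3, BI-9564, and both compounds together, called P+B. PFI-3 binds the bromodomain of BRG1, the ATPase of the complexes, and BI-9564 binds those of BRD7 and BRD9. Cells were grown without feeders in medium with serum, LIF and the inhibitors PD0325901 and Chir99021. Doxycycline was at 2 μg/ml in every group, DMSO included, so all 4 groups were JUN-induced. No uninduced library was used here, and the comparisons are between compounds on top of JUN. The sources used here do not settle whether each compound had the same dose in P+B as alone. A TetOn transgene gives JUN from an artificial promoter, and the labels name no clone.

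BAF complexes use the energy of ATP to slide or evict nucleosomes, and ESCs depend on them to keep the chromatin of pluripotency genes open. They are built in 3 forms around a shared core. Canonical BAF (cBAF) holds ARID1A or ARID1B together with DPF2, PBAF holds ARID2 and PHF10 with PBRM1 and BRD7, and non-canonical BAF (ncBAF) holds BRD9 and GLTSCR1. SS18, or its paralog SS18L1, sits in cBAF and ncBAF but not in PBAF. SMARCC1, a scaffold of the core, and SMARCD1 belong to all 3 forms, while SMARCB1, which contacts the nucleosome, belongs to cBAF and PBAF. The genes were described in these classes: the SS18 family, the cBAF-only subunits Arid1a, Arid1b and Dpf2, the PBAF-only subunits Arid2 and Phf10, and the shared subunits Smarcc1, Smarcb1 and Smarcd1.

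JUN acts as part of AP-1, which recognizes the letters TGANTCA. This motif was searched on both strands in the 250 bases before a start annotated by RefSeq. These promoter windows of GRCm38.p6 were matched for 8 of the 10 genes (9 windows, of which 2 were of Arid1a). The RefSeq start can differ from the gene position given below. The Smarcc1 and Arid1b windows lie inside those positions, as does the Arid1a window at chr4:133753986-133754235. All windows except those of Arid1a overlapped annotated exons, Dpf2 with all 250 bases and Ss18l1 with 201, in exons of Psma7. No window of Ss18 or Arid2 was used. Smarcb1 had the only match among the 9 windows, against 6.75% of all 32851 windows of that length. The CRE motif TGACGTCA, whose letters do not contain TGANTCA, was in 0 of the 9 windows and in 1.55% of all. A match is a description of letters and not evidence of binding. The Smarcb1 stretch is shown because it held the match, which is in capitals and lies 159 to 153 bases before the start. It runs from 250 to 6 bases before the start, in no annotated exon, on the minus strand at chr10:75921620-75921864.
Smarcb1: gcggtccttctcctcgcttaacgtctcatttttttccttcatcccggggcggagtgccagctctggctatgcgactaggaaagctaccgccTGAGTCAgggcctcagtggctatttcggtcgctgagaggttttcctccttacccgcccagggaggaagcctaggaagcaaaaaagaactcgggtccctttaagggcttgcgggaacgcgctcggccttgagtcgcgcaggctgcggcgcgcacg
The 9 windows ranged from 57.2% to 88.4% in GC content and held 17 to 51 CpG sites, where all windows had a median of 52.4% and 6 sites.

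Values were TPM, a length-scaled share of the transcripts, that the authors had made whole numbers, so low values move in steps of 1. Each library summed to between 991574 and 991897, a total that TPM fixes, and sequencing depth was therefore unknown. Replicates differed by a median of 0.17 to 0.19 on the log2 scale across the tested genes, with the lowest value in BI-9564 and the highest in DMSO. All 10 markers of pluripotent cells were above 0 in every library, with summed TPM of 3876 to 5082 in DMSO, 4259 to 5275 under PFI-3, 3493 to 4531 under BI-9564 and 3646 to 4637 under P+B. Most of each sum came from Dppa5a and Pou5f1. Singly, 9 of 10 markers had a log2 difference from DMSO above 0 with PFI-3 (54.1% of all tested genes). This held for 1 of 10 with BI-9564 (53.7%) and 5 of 10 with P+B (58%). Median differences of the markers were 0.40, -0.17 and -0.017. With P+B 0 of 10 passed the thresholds given below (4%), and 1, Esrrb, was higher past them with the replicate number as a block (7.02%). In BI-9564 against PFI-3, 0 of 10 passed without the block and 5 of 10 were lower with it. Of all 10222 tested genes, 51 were then higher and 100 lower. With the block, P+B against PFI-3 gave 0 of 10 and P+B against BI-9564 gave 1 of 10, Esrrb, higher. The 8 fibroblast markers summed to between 0 and 5 in any library, with 4 of 8 at 0 throughout. The 7 primitive endoderm markers summed to between 3 and 10, highest with P+B (6 to 10 against 4 to 5 in DMSO), with 3 of 7 at 0 throughout. The part of these cell types in the results below was not tested. Jun itself was at 1970 and 2877 TPM in DMSO, 1570 and 2227 under PFI-3, 2071 and 3011 under BI-9564 and 1569 and 2159 under P+B, with replicate 2 the higher in all 4 groups. Its difference from DMSO was -0.37 ± 0.26 on the log2 scale (SE) with P+B (limma adjusted p = 0.437, or 0.00156 with the replicate number as a block), -0.35 ± 0.26 with PFI-3 (0.876, or 0.116) and 0.069 ± 0.26 with BI-9564 (0.925, or 0.339). These differences were below the 1.5-fold threshold, and the part of Jun in the subunit values was not tested.

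By level, the genes formed an upper group of 6 and a descending series of 4. TPM is scaled per transcript length, so levels can be set against each other between genes. Averaged over the 8 libraries, Smarcb1 stood at 139.6 ± 12.3 TPM (SD, n = 8), Smarcc1 at 126.4 ± 7.98, Smarcd1 at 112.0 ± 6.63, Arid1a at 104.1 ± 6.77, Ss18 at 100.4 ± 5.63 and Dpf2 at 95.1 ± 6.75. Neighbors in this upper group were not separated by the spread between libraries, since each order held in 5 to 7 of the 8 libraries. Below them came Phf10 at 54.8 ± 5.73, Arid2 at 30.9 ± 3.23, Arid1b at 10.9 ± 2.47 and Ss18l1 at 3.5 ± 1.07. From Dpf2 downward every step held in 8 of 8 libraries. Thus the pairs of related subunits were unequal in mRNA: Ss18 exceeded Ss18l1 between 19.4-fold and 47-fold in a library, Arid1a exceeded Arid1b between 6.93-fold and 12.75-fold, and Dpf2 exceeded Phf10 between 1.51-fold and 2-fold.

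**Figure D1:**
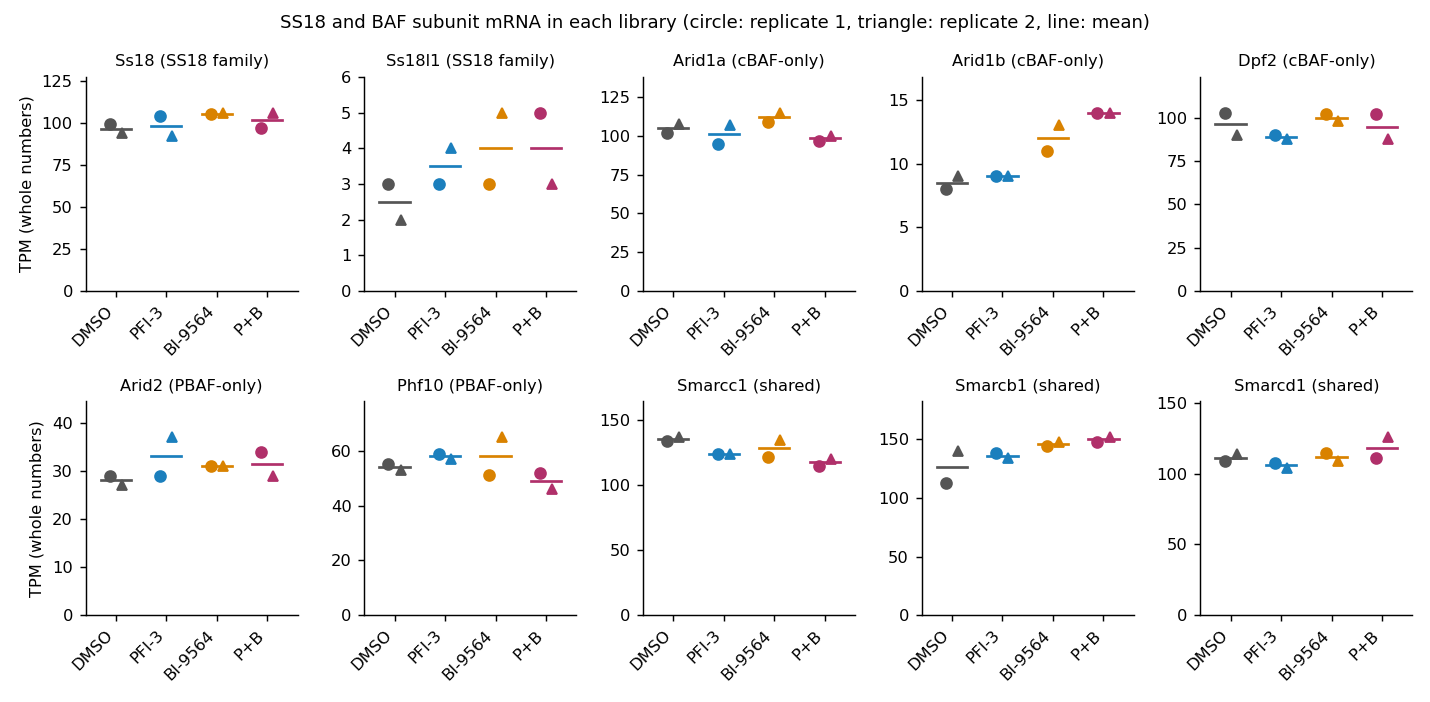
TPM of each of the 10 genes (vertical axes from 0, a scale of its own in each panel) in DMSO, PFI-3, BI-9564 and P+B, where circles and triangles are the libraries of replicates 1 and 2 and lines are group means. Arid1b shows 14 TPM in both P+B libraries against 8 and 9 in DMSO, while Ss18 stays between 92 and 106 TPM in all 8 libraries.

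Ss18 mRNA, which encodes the subunit after which the study names the complexes, was not called in any comparison and stayed within a 1.15-fold range over all 8 libraries. It measured 99 and 94 TPM in DMSO, 104 and 92 under PFI-3, 105 and 106 under BI-9564 and 97 and 106 under P+B. The BI-9564 libraries were both above the DMSO libraries, and the other groups overlapped with DMSO. Its coefficient of variation over all 8 libraries was 5.61%, where the 686 tested genes of similar level (within 1.2-fold) had a median of 10.2%. This was the lowest of the 10 genes but not particular to Ss18. Smarcd1 had 5.92% (9.96% at similar level), Smarcc1 6.32% (9.58%), Arid1a 6.50% (10.1%) and Dpf2 7.10% (10.1%). The low gene Arid1b had 22.8%, close to the 23.8% of genes at its level.

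Differences were tested with limma on log2(TPM + 1), over 10222 genes with a mean of at least 5 TPM, and a gene was called at an adjusted p below 0.05 and a fold of at least 1.5. All fold changes here are on the log2(TPM + 1) scale, which understates changes of low genes. In bulk RNA, fewer cells that express a gene and less of its RNA per cell cannot be told apart. No label states that replicates were separate cultures, so the p-values measure only the spread between these samples, which may be technical. The Ss18 difference from DMSO was 0.071 with P+B (95% interval -0.16 to 0.30, limma adjusted p = 0.723), turning to -0.022 under median centring. It was 0.020 with PFI-3 (interval -0.21 to 0.25, adjusted p = 0.99), which also turned to -0.027 under median centring. With BI-9564 it was 0.13 (interval -0.10 to 0.36, adjusted p = 0.592). These 95% intervals reach up to 1.28-fold.

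Ss18l1 (GRCm38 chromosome 2, 180042509 to 180070201, plus strand), the paralog that can take the place of SS18, was near the lower end of what the table resolves. It was at 3 and 2 TPM in DMSO, 3 and 4 under PFI-3, 3 and 5 under BI-9564 and 5 and 3 under P+B. Each treated group overlapped with DMSO, and a step of 1 TPM was as large as most of the differences. The gene did not pass the filter and was the only one of the 10 left untested. With the filter lowered to a mean of 1 TPM, which admitted 13101 genes, its difference between P+B and DMSO was 0.50 ± 0.37 (SE, limma adjusted p = 0.498).

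With P+B, 0 of the 9 tested subunits were called, where 4% of all tested genes were (409 of 10222). At an unadjusted limma p below 0.05 there were 3 of 9, against 22.6% of all tested genes: Arid1b and Smarcb1 in the upward direction and Smarcc1 in the downward one. Adding the replicate number as a block also left 0 of 9, with 7.02% of all genes called. The single compounds gave 0 of 9 as well, with backgrounds of 0% for PFI-3 and 0.108% for BI-9564 (0% and 1.53% with the block), and with 0 of 9 members at an unadjusted p below 0.05 in each (6.79% and 14.9% of all genes). Since so few genes were called with the single compounds, their counts of 0 say little about the subunits.

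**Figure D2:**
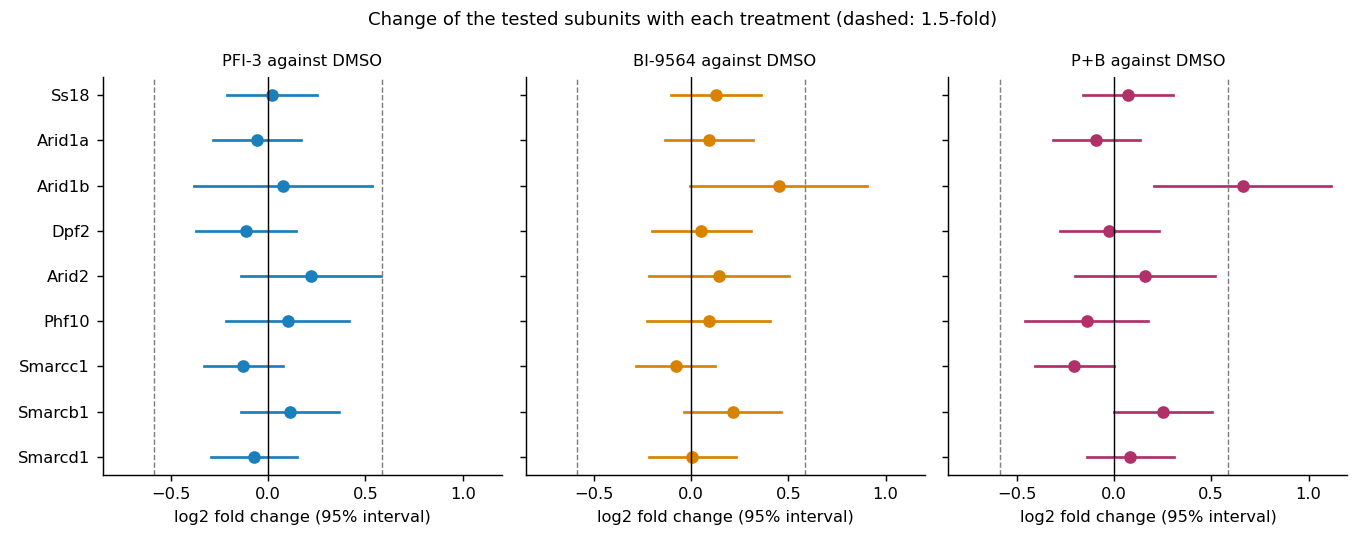
Log2 fold change against DMSO of the 9 tested subunits (points) with 95% intervals (bars) for PFI-3, BI-9564 and P+B, from limma on log2(TPM + 1); dashed lines mark 1.5-fold in either direction. For P+B the Arid1b interval runs from 0.21 to 1.12 and crosses the upper line, and those of the other 8 lie between the lines.

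The intervals bound the changes more tightly than the counts do. With P+B, 8 of 9 subunits had a 95% interval that lay wholly within 1.5-fold of DMSO, which held for 40.1% of all tested genes, and the exception was Arid1b. With PFI-3 this was so for 9 of 9 (51.4% of all genes) and with BI-9564 for 8 of 9 (45.1%), Arid1b again being outside. The share over all genes includes low and noisy genes, whereas 6 of the 9 subunits were above 90 TPM on average. Read as ranges, 2 of 9 subunits had both P+B libraries above both DMSO libraries (28.6% of all tested genes) and 3 of 9 below (18.9%). For PFI-3 these were 1 of 9 above (16.5%) and 2 of 9 below (12.8%), and for BI-9564 5 of 9 above (22.9%) and 0 of 9 below (18.3%). The median size of the difference with P+B, regardless of sign, was 0.14 over the 9 subunits and 0.22 over all genes tested.

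Arid1b, which encodes the less abundant of the large ARID subunits of cBAF (GRCm38 chromosome 17, 4994332 to 5347656, plus strand), had the largest difference of the 9 tested genes in the comparisons of P+B and BI-9564 with DMSO. It was at 8 and 9 TPM in DMSO, 9 and 9 under PFI-3, 11 and 13 under BI-9564 and 14 and 14 under P+B. Both P+B libraries were above all other 6, and both BI-9564 libraries were above all DMSO and PFI-3 libraries. With P+B the difference was 0.66 ± 0.20 (SE, n = 2 per group), a 1.58-fold higher level, but the limma adjusted p of 0.0986 missed the threshold. It was 0.0638 with the replicate block and 0.0421 when the prior variance was not allowed to follow the mean level, the only setting tried under which Arid1b, or any of the subunits, was called. Leaving out a library gave 0.59 to 0.74, with adjusted p-values of 0.127 to 0.257. With BI-9564 the difference was 0.45 ± 0.20 (adjusted p = 0.339) and with PFI-3 0.076 ± 0.20 (adjusted p = 0.982). P+B and PFI-3 differed by 0.59 ± 0.20 (adjusted p = 0.197), and P+B and BI-9564 by 0.21 ± 0.20 (adjusted p = 0.881).

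Its counterpart Arid1a (GRCm38 chromosome 4, 133679008 to 133756769, minus strand), the main ARID subunit of cBAF by level, did not share this pattern of values. It was at 102 and 108 TPM in DMSO, 95 and 107 under PFI-3, 109 and 115 under BI-9564 and 97 and 100 under P+B. The P+B libraries lay just below and the BI-9564 libraries just above those of DMSO. The differences from DMSO were -0.091 ± 0.098 with P+B (adjusted p = 0.632), -0.057 ± 0.098 with PFI-3 (adjusted p = 0.963) and 0.092 ± 0.098 with BI-9564 (adjusted p = 0.707). The ratio of Arid1a to Arid1b was 12.75 and 12 in DMSO, 10.6 and 11.9 under PFI-3, 9.91 and 8.85 under BI-9564 and 6.93 and 7.14 under P+B. The BI-9564 and P+B libraries were thus below both DMSO libraries in this ratio, those of P+B the furthest. PFI-3 replicate 2, at 11.9, cannot be told apart from DMSO replicate 2, at 12. Arid1b was at 9 TPM in both, and the values are whole numbers. For this description 2 against 2 libraries cannot give an exact permutation p below 0.333.

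Dpf2 (GRCm38 chromosome 19, 5896516 to 5913010, minus strand), a reader of histone acetylation in cBAF, was not called in any comparison. It was at 103 and 90 TPM in DMSO, 90 and 88 under PFI-3, 102 and 98 under BI-9564 and 102 and 88 under P+B. Replicate 1 was the higher in all 4 groups, and each treated group met or overlapped the range of DMSO. The difference with P+B was -0.023 ± 0.11 (limma adjusted p = 0.928), and 0.029 under quantile normalization. An antisense gene overlaps its exons, and whether counting used the strand is not given in the sources used here.

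The PBAF-only subunits showed no common direction with P+B. Arid2 (GRCm38 chromosome 15, 96287518 to 96404992, plus strand), which defines PBAF in place of the ARID1 proteins, was at 29 and 27 TPM in DMSO, 29 and 37 under PFI-3, 31 and 31 under BI-9564 and 34 and 29 under P+B. A single PFI-3 library at 37 TPM set the largest of its differences, 0.22 ± 0.16 (limma adjusted p = 0.868), and without that library it was 0.050. With P+B it was 0.16 ± 0.16 (adjusted p = 0.591). Phf10 (GRCm38 chromosome 17, 14945009 to 14961273, minus strand), a PHD finger subunit of PBAF, was at 55 and 53 TPM in DMSO, 59 and 57 under PFI-3, 51 and 65 under BI-9564 and 52 and 46 under P+B. Its P+B libraries were below and its PFI-3 libraries above those of DMSO, while the BI-9564 libraries lay on either side. The differences were -0.14 ± 0.14 (adjusted p = 0.597), 0.10 ± 0.14 (adjusted p = 0.954) and 0.091 ± 0.14 (adjusted p = 0.802) for P+B, PFI-3 and BI-9564. Exons of a coding gene on the opposite strand overlap those of Phf10.

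Among the shared subunits, Smarcc1 and Smarcb1 had differences of opposite sign with P+B, and neither was called. Smarcc1 (GRCm38 chromosome 9, 110117708 to 110240178, plus strand) was at 134 and 137 TPM in DMSO, 124 and 124 under PFI-3, 122 and 135 under BI-9564 and 115 and 120 under P+B. All P+B libraries were below all other libraries, and the PFI-3 libraries were also below those of DMSO. The difference was -0.20 ± 0.089 with P+B (limma adjusted p = 0.22), -0.13 ± 0.089 with PFI-3 (adjusted p = 0.862) and -0.078 ± 0.089 with BI-9564 (adjusted p = 0.732). The exons of Dhx30, on the opposite strand, overlap those of Smarcc1.

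Smarcb1 (GRCm38 chromosome 10, 75896769 to 75921617, minus strand), whose promoter window held the AP-1 letters shown above, was at 113 and 140 TPM in DMSO, 138 and 134 under PFI-3, 144 and 148 under BI-9564 and 148 and 152 under P+B. DMSO replicate 1 was the lowest of the 8 libraries, well apart from replicate 2 of its group. The difference with P+B was 0.25 ± 0.11 (limma adjusted p = 0.22). It was 0.099 without DMSO replicate 1 and reached 0.41 without DMSO replicate 2, so that 1 control library decided its size. With BI-9564 it was 0.21 ± 0.11 (adjusted p = 0.404), or 0.060 without DMSO replicate 1. With PFI-3 it was 0.11 ± 0.11 (adjusted p = 0.926), and -0.042 without that library.

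Smarcd1 (GRCm38 chromosome 15, 99702129 to 99713991, plus strand), a core subunit that links the complexes to transcription factors, was at 109 and 114 TPM in DMSO, 108 and 104 under PFI-3, 115 and 109 under BI-9564 and 111 and 126 under P+B. PFI-3 lay below DMSO and the other treatments overlapped with it. With P+B the difference was 0.085 ± 0.097 (limma adjusted p = 0.657), turning to -0.0061 when P+B replicate 2 was left out and to -0.0085 under median centring. With PFI-3 it was -0.072 ± 0.097 (adjusted p = 0.954). Genes on the opposite strand overlap its exons as well.

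The treatments were also compared with each other. P+B against PFI-3 gave 0 of 9 subunits called (1.31% of all tested genes), P+B against BI-9564 0 of 9 (0.196%), and BI-9564 against PFI-3 0 of 9 (0.108%). At an unadjusted limma p below 0.05 there was 1 of 9, Arid1b, in P+B against PFI-3 (16.6% of all genes) and 0 of 9 in the other comparisons (7.97% and 14.2%). The interaction test, which sets P+B against the added differences of PFI-3 and BI-9564, called 0 of 9, and 0% of all genes, with 0 of 9 and 3.26% at an unadjusted p below 0.05. In that test Arid1b differed from the sum by 0.13 ± 0.28, an interval of -0.51 to 0.78, which is too wide to tell an additive change from one that is not. Where the doses in P+B were lower than alone, this comparison and those of P+B with a single compound would not be at matched doses.

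The balance between the cBAF-only and PBAF-only classes depended on whether Arid1b, the low member of the first, was averaged in. The mean log2(TPM + 1) of Arid1a, Arid1b and Dpf2 minus that of Arid2 and Phf10 was 0.16 and 0.25 in DMSO, 0.065 and -0.035 under PFI-3, 0.33 and 0.24 under BI-9564 and 0.31 and 0.45 under P+B. PFI-3 libraries were below and P+B libraries above those of DMSO, and BI-9564 overlapped with DMSO. The group means differed from DMSO by -0.19 (PFI-3), 0.082 (BI-9564) and 0.17 (P+B), where the pooled SD between replicates was 0.076. Arid1b carried the P+B value: without it the balance was 1.34 and 1.36 in DMSO, 1.14 and 1.06 under PFI-3, 1.38 and 1.22 under BI-9564 and 1.22 and 1.34 under P+B. The P+B difference then became -0.067, that of BI-9564 became -0.044 and that of PFI-3 was -0.25. With PFI-3, the Arid1a to Arid2 ratio was 3.28 and 2.89 against 3.52 and 4 in DMSO, and the Dpf2 to Phf10 ratio was 1.53 and 1.54 against 1.87 and 1.70. Both PFI-3 ratios were below both DMSO values in each pair, although no gene of either pair was called. These pairs hold the same genes as the balance without Arid1b, so they restate it. The PFI-3 ratio of 2.89 came from replicate 2, the library in which Arid2 was at 37 TPM. With P+B, the Arid1a to Arid2 ratio was 2.85 and 3.45, below DMSO, and the Dpf2 to Phf10 ratio was 1.96 and 1.91, above it.

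**Figure D3:**
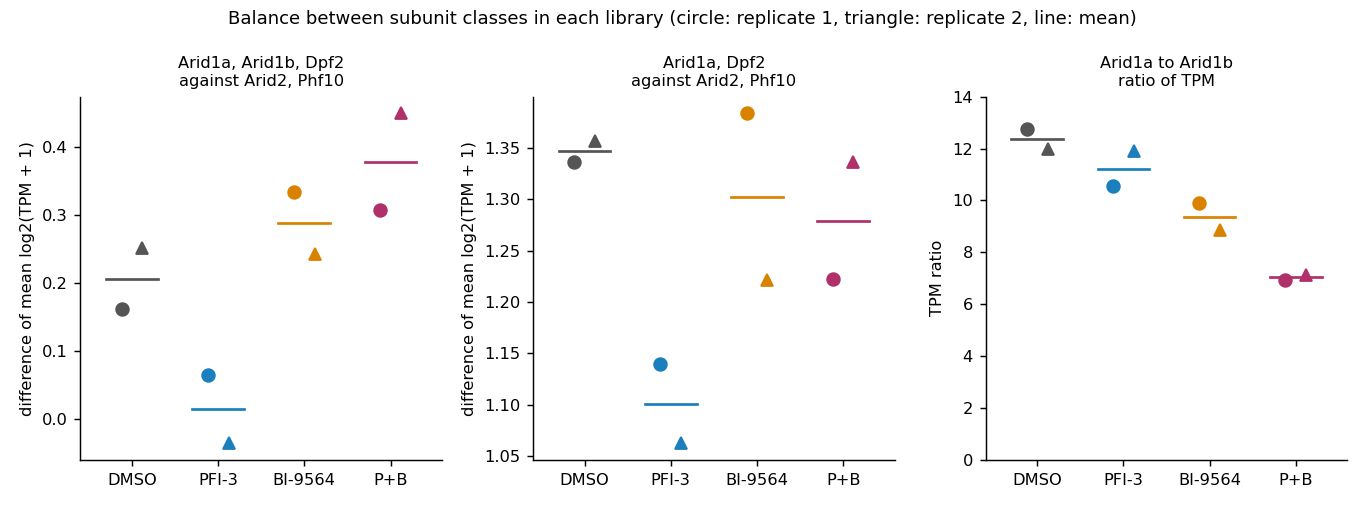
Balance between cBAF-only and PBAF-only subunits in each library, as the difference of mean log2(TPM + 1) with Arid1b (left) and without it (middle), and the ratio of Arid1a to Arid1b in TPM (right, axis from 0); circles and triangles are replicates 1 and 2 and lines are group means. With Arid1b the P+B libraries (0.31 and 0.45) lie above those of DMSO, without it P+B overlaps the range of BI-9564 and does not exceed DMSO, and the ratio falls from 12.4 in DMSO to 7.04 with P+B.

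As a class, the shared subunits differed from DMSO by no more than 0.047 under any treatment. Their mean log2(TPM + 1) was 6.96 ± 0.095 in DMSO, 6.93 ± 0.023 for PFI-3, 7.01 ± 0.025 for BI-9564 and 7.01 ± 0.066 for P+B (SD, n = 2), in which the opposite differences of Smarcc1 and Smarcb1 cancelled in part. The TPM of all 10 genes summed to 755 and 774 in DMSO, 759 and 756 under PFI-3, 793 and 825 under BI-9564 and 775 and 784 under P+B. Both BI-9564 sums were above every other library. With BI-9564, 8 of the 9 tested subunits had a difference above 0 (53.7% of all tested genes), none called, at a median of 0.092 against 0.024 over all tested genes. With P+B this held for 5 of 9 (58%) and with PFI-3 for 5 of 9 (54.1%). The 9 differences share the same DMSO libraries. Leaving out a library reversed those of Dpf2, Phf10 and Smarcd1 with BI-9564.

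A list of 19 further BAF genes was examined with the same fit, of which 16 were tested. With P+B 0 of 16 were called (4% of all tested genes) and 5 of 16 had an unadjusted limma p below 0.05 (22.6%). With the replicate block 2 of 16 were called (7.02%), both higher: Bcl7a, a small subunit, at 0.81 ± 0.20 (adjusted p = 0.0628 without and 0.0335 with the block), and Dpf1, a paralog of Dpf2 known from neurons, at 0.79 ± 0.20 (adjusted p = 0.0637 and 0.0454). Under either single compound, 0 of 16 were called, with or without the block. The shares of all tested genes were 0% for PFI-3 and 0.108% for BI-9564 (0% and 1.53% with the block), so these counts say little. At an unadjusted p below 0.05 there were 1 of 16 under PFI-3 (6.79% of all genes) and 0 of 16 under BI-9564 (14.9%). The genes of the proteins that the compounds bind, named after their values were seen, were not called either: with P+B the difference was 0.13 ± 0.10 for Smarca4, which encodes BRG1, -0.098 ± 0.18 for Brd7 and -0.12 ± 0.16 for Brd9.

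Lists of other remodelers served for comparison in P+B against DMSO, where 4% of all tested genes were called and 22.6% had an unadjusted p below 0.05. Of 13 tested NuRD genes 1 was called, Mta3, which was lower by -0.80 ± 0.12 (limma adjusted p = 0.0103). Of 9 tested ISWI genes 1 was called, Baz1a, at -1.08 ± 0.17 (adjusted p = 0.013), and of 12 INO80 and SRCAP genes 0 were called, with 3 of 12 at an unadjusted p below 0.05. Both genes were named after their values were seen. Whether the BAF subunits differ from these lists was not tested.

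The genes whose values followed Ss18 most closely over the 8 libraries were Nmb (Pearson r = 0.944), Cnot6 (0.941), Zcrb1 (0.935), Csnk2a1 (0.934) and Cwc27 (0.928). They are the top 5 of 10222 tested genes, 13 of which had an r above 0.9, and no other BAF gene was among the 5. With 8 libraries that share 4 groups and replicate numbers, this is a description only.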

How the data were processed

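RNA-seq libraries were grouped by their titles, and each of the 8 columns entered the fit. Per the labels, the submitters' processing notes name bcl2fastq, Bowtie2 2.2.5, RSEM 1.3.0 and mm10. The values deposited by the authors are a score per gene, namely TPM made whole numbers; how they were rounded is not given in the sources used here. The authors name DESeq2 among their tools, and its input is not given in the sources used here. Read numbers cannot be had from TPM, so no count model was run and the precision comes from the replicates alone.

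Values were analysed as log2(TPM + 1) with limma 3.58.1 in R 4.3.3 (lmFit, eBayes with a trend), in genes with a mean of at least 5. All 4 groups shared 1 fit with 4 residual degrees of freedom. P-values were two-sided and adjusted by Benjamini-Hochberg over all 10222 tested genes in each comparison, and intervals are at 95%. The fit was tested on simulated data. Same-numbered replicates deviated together (r of 0.14 to 0.24 across genes, in all 6 pairs of groups), which met the criterion for pairing. The reported values come from the fit without the replicate number, and the fit with it as a block was an alternative. In P+B against DMSO the block lowered the SE of each tested subunit, for Smarcc1 from 0.089 to 0.072. The limma adjusted p was then 0.110 for Smarcc1 and 0.124 for Smarcb1, against 0.22 for each without it.

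The members and lists were chosen with earlier results of these data known. All 10 members were named, other BAF genes if called or if a result turned on them, other remodelers as counts, and the 5 genes most correlated with Ss18. Smarca4, Brd7, Brd9, Mta3, Baz1a, Jun, Dppa5a, Pou5f1 and Esrrb were named outside this rule, after their values were seen. The table lists 2 BAF genes under the older symbols Gltscr1 and Gltscr1l. Gene positions are from GENCODE M21 on GRCm38 and promoter windows from RefSeq, GRCm38.p6. Alternatives were other pseudocounts (0.5 and 5), filters (1, 20 and none), scalings, prior variances, thresholds and sets of libraries. The markers of trophoblast cells summed to between 19 and 28 in any library, with 24 to 28 in P+B and 20 to 23 in DMSO. Of 4 genes kept as a check of the induced system (Jun, Anxa1, Fosl1 and Fosl2), 3 were called lower with P+B: Anxa1, Fosl1 and Fosl2.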

Additional observations from a re-analysis of the deposited data

How the results depend on the processing

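The count of subunits called stayed at 0 in 138 of 139 values over 7 comparisons and 20 alternatives. The exception was P+B against DMSO with a prior variance that did not follow the mean, where 1 subunit, Arid1b, was called. In most comparisons the main fit called few genes of any kind, so most of these counts of 0 say little. It called 0% of all tested genes with PFI-3 and in the interaction test. The share was 0.108% with BI-9564 and in BI-9564 against PFI-3, and 0.196% in P+B against BI-9564. With the replicate block the counts were 0 in all 7 comparisons, as they were in every fit that left out a library; a lone library was assumed to vary like the other groups. The block changed no call of a subunit; it added Bcl7a and Dpf1 among the other BAF genes. For all genes it raised the calls with P+B from 409 to 718, with BI-9564 from 11 to 156 and with P+B against PFI-3 from 134 to 351. No other setting called Arid1b with P+B (adjusted p up to 0.43 without a filter), and the filter at 20 left it untested.

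Of 550 values of single subunits under an alternative, 16 changed sign. Under median centring these were Ss18 with P+B (-0.022) and PFI-3 (-0.027), and Smarcd1 with P+B (-0.0085) and BI-9564 (-0.041); under quantile normalization it was Dpf2 with P+B (0.029). With a library left out, the values ran from -0.13 to 0.082 for Dpf2 and from -0.0061 to 0.18 for Smarcd1 with P+B. With PFI-3 they ran from -0.068 to 0.11 for Ss18, from -0.14 to 0.028 for Arid1a and from -0.042 to 0.27 for Smarcb1. With BI-9564 they ran from -0.043 to 0.15 for Dpf2, from -0.081 to 0.26 for Phf10 and from -0.032 to 0.045 for Smarcd1. The cause was not tested. The balance of cBAF-only against PBAF-only levels, Arid1b included, kept its direction from DMSO when a library was left out. For PFI-3 and P+B this was fixed in advance, because both libraries lay on the same side of both DMSO libraries. Only the direction of BI-9564, which overlapped with DMSO, could have turned. PFI-3 gave -0.24 to -0.14, BI-9564 gave 0.036 to 0.13 and P+B gave 0.10 to 0.24. Leaving out a library cannot show whether the balance rests on a single gene. When Arid1b was taken out instead, the direction reversed for P+B (-0.067) and BI-9564 (-0.044), but not for PFI-3 (-0.25).

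With 2 libraries a group, no exact test of a single value can pass 0.05, and whole-number TPM limits Arid1b and Ss18l1 most.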
